A study of Rattus norvegicus with 9 samples.

Results

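The integrins and leukocyte adhesion molecules described here are 34 genes: the 26 named integrin chains of the rat (18 alpha and 8 beta) and 8 other surface molecules, Icam1, Icam2, Vcam1, Cd44, Cd47, Cd99, Cd99l2 and F11r. They were found by symbol in a count table of 28343 genes. Of the 34, 33 had a row and 24 passed the filter on low counts, which 11748 genes passed in all. Itgad was not analysed here. The list was drawn up when differences between diabetic and control libraries were already known, and its rule names Cd99, one of the genes past the threshold. The differences between the groups are therefore given for the members as a description. Calls and p-values from the tests over all genes stand beside them and are not read as a test of the members.

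The libraries came from retinal microglia, the resident macrophages of the retina, of Dark Agouti rats, an inbred strain. Rats aged 8 to 10 weeks were made diabetic by streptozotocin, a toxin of the pancreatic beta cells, at 55 mg/kg after 12 hours without food, and controls were given citrate buffer. Retinas were taken 4 weeks later, and diabetic animals had received 2 units of insulin whenever glucose was above 30 mmol/l. Papain digests of whole retina were sorted for CD11b, and the RNA was preamplified with a SmartSeq kit, which left 5 control libraries (1, 3, 4, 5 and 6) and 4 diabetic libraries (1, 2, 4 and 5). CD11b is the protein of Itgam, so the cells were selected by the product of a member, and CD11b also lets other myeloid cells through the gate. The labels do not say whether a library is 1 animal or a pool, so p-values measure the spread between these libraries.

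An integrin is a pair of 1 alpha and 1 beta chain that spans the membrane and holds a cell to extracellular matrix or to a ligand on another cell. Talin and kindlin bind the beta chain from inside and switch the pair to its high-affinity form, and kinases of the Src and focal adhesion families signal from the bound integrin. Microglia carry the leukocyte beta-2 integrins, among them the complement receptor made of Itgam and Itgb2, and Icam1 and Vcam1 are counter-receptors that leukocytes grip on inflamed cells. In the retina, leukocyte adhesion to the vessel wall has long been studied in diabetes.

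Total counts ran from 6228756 to 11332823 per library. Levels are CPM, that is counts scaled to a common library size with TMM factors, and are not per gene length, so they are compared between libraries and not between genes. Values stand in the order control 1, 3, 4, 5 and 6 and diabetic 1, 2, 4 and 5, and a pair in parentheses is the log2 fold change of diabetic minus control with its SE. The microglial marker list summed to 28373 to 32424 CPM among controls and 27160 to 29320 CPM in diabetic libraries, with all 11 of its genes that the table holds counted. Markers of other cells were present too. The neutrophil genes S100a8 and S100a9 had 0 to 9 and 2 to 59 counts in control libraries. They had 14 to 64 and 145 to 375 in diabetic ones. Mpo and Lcn2 had 0 counts throughout. The whole neutrophil list summed to 303 to 383 CPM in control and 308 to 374 CPM in diabetic libraries. Most of it was Csf3r, with 2520 to 3920 counts in control and 1831 to 2922 in diabetic libraries. In the same order, Cxcr2 had 0 to 25 and 15 to 34 counts, and Mmp8 0 to 23 and 5 to 83. Mmp9 had 0 to 8 and 4 to 18, Retnlg 0 to 13 and 4 to 26, and Camp 0 to 1 and 0 to 10. Elane and Ngp had at most 2 counts in any library. Border macrophage genes summed to 383 to 835 CPM among controls and 722 to 1577 CPM in diabetic libraries. Monocyte genes summed to 386 to 444 and 501 to 706 CPM, with Ccr2 at 0. F13a1 is on both lists, so the sums are not separate measures. The T and NK cell list summed to 794 to 951 CPM among controls and 728 to 992 CPM in diabetic libraries, most of it Cd4. Of its 11 genes in the table, Cd3d, Cd3g and Nkg7 were at 0 in all 9 libraries and Cd3e had 1 count in control 4 and 1 in control 6. Lck had 18 to 40 counts in every library, and Cd8a had 87 in control 3. A list of 24 genes known to respond to cell isolation, of which 23 were in the table, took between 0.560% (control 3) and 3.55% (control 6) of the counts, with 2.95% in control 4 and at most 1.22% in the other controls. In diabetic libraries it took 1.50% to 2.53%.

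Most members overlapped between the groups. In diabetic libraries Cd99 and Itgb4 were higher, and Itgb1 and Itgb2 lower, than in any control library. These 4 of 24 members without overlap (16.7%) stand beside 8.44% of all genes tested, 4.27% higher and 4.16% lower. At an adjusted p under 0.05 in the edgeR quasi-likelihood test, 1 member (Cd99) was among the 8 genes that passed, 0.0681% of the genes tested (0.0426% higher and 0.0255% lower). At 0.1 these were 2 members (Cd99 higher, Itgb1 lower) beside 1.9% of all genes (1.05% higher and 0.851% lower). At p under 0.05 before adjustment they were 9 members, 4 higher and 5 lower, beside 18.9% of all genes (8.94% higher and 10% lower). DESeq2 called Cd99 and Itgb1 at an adjusted p under 0.05, beside 5.16% of its 11596 genes. Since the list was made with these differences in view, nothing is read from these shares. The median log2 fold change (diabetic minus control) over the 24 members was -0.15, with 8 above and 16 below 0, against 0.0017 over all genes. With upper-quartile factors the medians were -0.074 for members and 0.077 for all genes, and with no factors -0.023 and 0.12. The alpha chains had a median of -0.24 (1 of 11 above 0), the beta chains -0.067 (3 of 6) and the other adhesion molecules 0.038 (4 of 7). In libraries of sorted tissue, fewer cells of a type and less RNA per cell cannot be told apart.

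**Figure D1:**
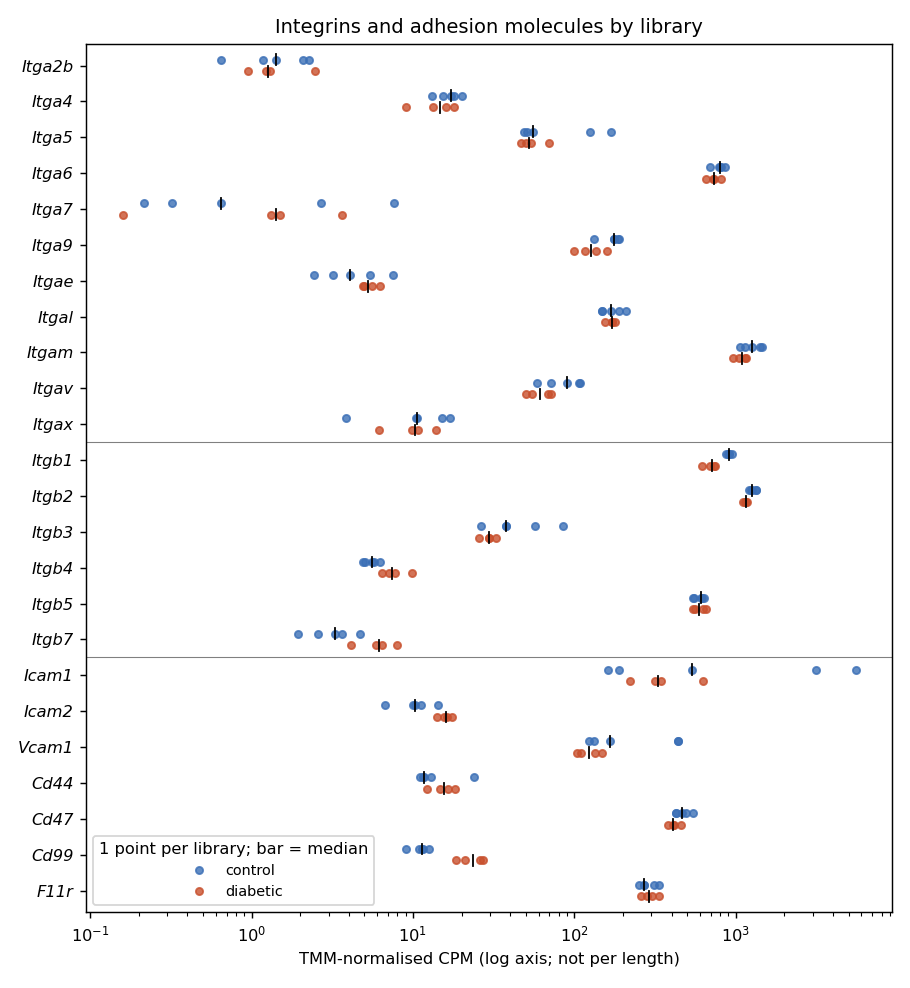
Normalised CPM (log axis, not per gene length) of each of the 24 tested members, in rows by role, with 1 point per library for the 5 control and 4 diabetic libraries and a bar at each group's median. A pair of control points of Icam1, Vcam1 and Itga5 lies far to the right of the rest, and the diabetic points of Cd99 lie to the right of all its controls.

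Cd99, a small glycoprotein that leukocytes and endothelium both carry and that takes part in the crossing of the vessel wall, was counted at 85 to 270 reads per library. The control libraries had 11.3, 10.9, 12.5, 9.11 and 11.5 CPM. The diabetic libraries had 18.6, 21.0, 26.0 and 27.0 CPM. The lowest diabetic library lay well above the highest control. The control mean was 11.1 ± 1.24 CPM (SD, n = 5) and the diabetic mean 23.2 ± 4.01 CPM (SD, n = 4). The log2 fold change was 1.06 (SE 0.25). The authors' deposited table gave it a log2 fold change of 1.18. Cd99 lies on chromosome 20 of build Rnor6, 56192390 to 56197025 on the minus strand (ENSRNOG00000050735). Leaving out 1 library at a time moved its log2 fold change between 0.98 and 1.16, with an edgeR adjusted p of 0.0393 to 0.207 that was under 0.05 only without control 1. The monocyte sum, S100a8 and S100a9 were also higher in all diabetic libraries than in any control. The border macrophage sum and the sum of the whole neutrophil list overlapped. The part of these cells in the Cd99 values was not tested. Its relative Cd99l2 had 0 counts, which allows up to 0.0599 CPM over the control and 0.0870 CPM over the diabetic libraries (3 counts over each group, counting error only).

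Itgb1, the beta chain shared by the largest number of integrin pairs, was lower in diabetic libraries. Control libraries had 869.6, 894, 945, 904 and 904 CPM, and diabetic libraries 729, 619, 692 and 739.6 CPM. The 5 controls were close together and all lay above the diabetic range. The log2 fold change was -0.38 (SE 0.11). Its reference transcript spans chromosome 19, 61677542 to 61725535, on the plus strand of Rnor6 (ENSRNOG00000010966).

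Several of its alpha partners passed the filter. Itga9, a receptor for tenascin and Vcam1, had 133, 186, 177, 177 and 188 CPM among controls and 136, 116, 99.3 and 160.4 CPM in diabetic libraries, a log2 fold change of -0.43 (SE 0.17). Only control 1 fell inside the diabetic range. Itga4, which with Itgb1 binds Vcam1 and fibronectin, ran from 13.04 to 20.2 CPM among controls and from 9.09 to 18.02 CPM in diabetic libraries (-0.24, SE 0.21), and the log2 fold change was -0.075 without diabetic 2 and -0.38 without diabetic 5. Itga6, a laminin receptor chain, ran from 692 to 856 and from 657 to 812 CPM (-0.11, SE 0.10), so most of both ranges was shared. Itga2b, the platelet chain that pairs with Itgb3, had only 6 to 26 counts per library and means of 1.52 ± 0.661 CPM (SD, n = 5) and 1.49 ± 0.671 CPM (SD, n = 4). The platelet list, which holds Itga2b itself, summed to 15.6 to 30.1 CPM among controls and 22.7 to 48.0 CPM in diabetic ones. Of its 9 genes, Gp1bb, Gp6 and Tubb1 had 0 counts in every library, while Pf4 had 79 to 340, Gp9 10 to 44 and Treml1 13 to 36 counts. Their part in the Itga2b values was not tested.

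Itga7, a laminin receptor chain of muscle, varied more within the groups than between them. Its counts were 81, 31, 3, 2 and 5 in control and 37, 13, 1 and 15 in diabetic libraries, or 7.66, 2.69, 0.323, 0.214 and 0.645 CPM against 3.66, 1.33, 0.159 and 1.50 CPM. Control 1, control 3 and diabetic 1 had most of the reads. The mural cell and fibroblast list, whose Dcn, Lum and Col1a2 were at 0, summed to 65.6 CPM in control 1 and 34.3 in control 3, but 4.39 to 10.5 CPM in the other 3 controls and 4.46 to 8.99 in diabetic libraries. Its part in the Itga7 values was not tested.

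The leukocyte integrins share Itgb2. Itgb2 had 1251, 1266, 1205, 1330.0 and 1329 CPM among controls and 1176, 1113, 1148 and 1159 CPM in diabetic libraries. The groups did not overlap, but the gap was narrow and the log2 fold change was -0.15 (SE 0.08). Itgam had 1066, 1137, 1263, 1423 and 1446 CPM among controls and 966, 1041, 1139.9 and 1159 CPM in diabetic libraries, -0.24 (SE 0.12), with overlap. It was counted at 7149 to 13283 reads per library, and it lies on chromosome 1, 199495427 to 199545292, plus strand of Rnor6 (ENSRNOG00000019728). Itgal, the chain of the Icam-binding integrin LFA-1, ran from 147 to 208 CPM among controls and from 155 to 179 CPM in diabetic libraries, and the log2 fold change was -0.02 (SE 0.12). The monocyte sum, S100a8 and S100a9 were higher in all diabetic libraries than in any control. The border macrophage sum overlapped, with 835 CPM in control 3 and 722 CPM in diabetic 2, and so did the sum of the whole neutrophil list. The part of these cells in the leukocyte chains was not tested.

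Whether the non-overlap of Itgb1 and Itgb2 is seen depends on the scaling. With no normalization factors neither was free of overlap while Icam2 was, and with upper-quartile factors Itgb2 overlapped. With no factors the log2 fold change was -0.26 for Itgb1, -0.036 for Itgb2 and -0.11 for Itgam. Cd99 and Itgb4 did not overlap under any of these scalings. Itgb1 and Itgb2 also had no overlap in the 9 fits that left out 1 library. That is no check, because leaving out a library can hardly create overlap.

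Itgb4, the laminin-binding chain that pairs with Itga6, had 5.58, 5.04, 5.70, 6.21 and 4.90 CPM among controls and 6.43, 7.15, 9.89 and 7.71 CPM in diabetic libraries. All diabetic values were higher, on 38 to 77 reads per library, and the log2 fold change was 0.50 (SE 0.22). Itgb7, which with Itga4 binds the gut address molecule Madcam1 and with Itgae binds E-cadherin, had 3.31, 4.69, 2.58, 3.64 and 1.94 CPM among controls and 5.93, 6.44, 7.97 and 4.10 CPM in diabetic libraries (0.90, SE 0.35). Diabetic 5 lay below control 3, and the other diabetic libraries lay above all controls, on 15 to 63 reads. Itgae ran from 2.45 to 7.56 CPM among controls and from 4.90 to 6.23 CPM in diabetic libraries (0.25, SE 0.32). It was 0.52 without control 1, 0.15 without control 3 and 0.10 without control 6.

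**Figure D2:**
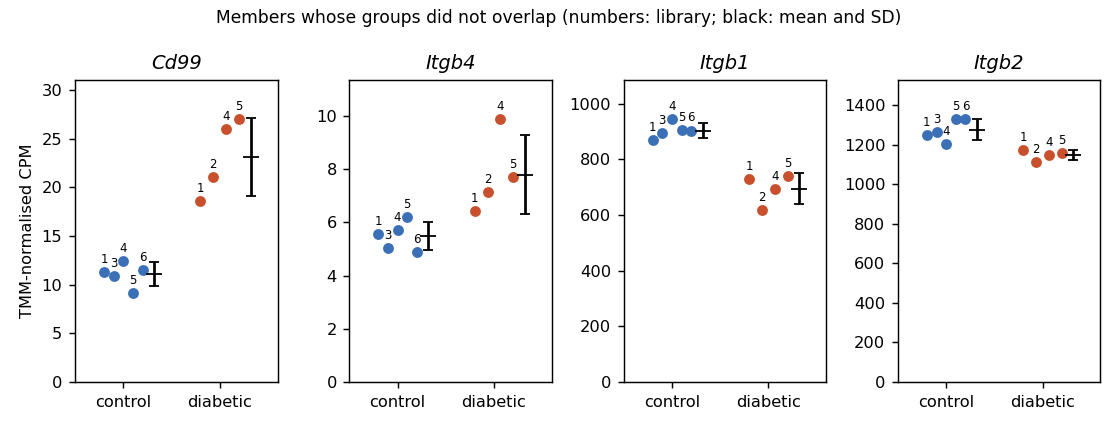
Normalised CPM of the 4 members whose groups did not overlap, 1 point per library, with the mean and SD of the 5 control and 4 diabetic libraries. Cd99 and Itgb4 are higher in all diabetic libraries, and Itgb1 and Itgb2 lower.

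The vitronectin receptors pair Itgav with Itgb3 or Itgb5. Itgav, which pairs with several beta chains, had 58.7, 71.7, 108, 89.9 and 106 CPM among controls and 55.0, 68.3, 50.1 and 71.7 CPM in diabetic libraries (-0.50, SE 0.22). Control 1 fell inside the diabetic range, control 3 (71.72 CPM) lay just above diabetic 5 (71.67 CPM), and control 4, 5 and 6 lay well above it. Without control 4 and control 6 the log2 fold change was -0.27. Itgb5, its partner for vitronectin, ran from 547 to 633 CPM among controls and from 545 to 656 CPM in diabetic libraries, and the log2 fold change was 0.02 (SE 0.09).

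Icam1, the endothelial and myeloid counter-receptor of LFA-1 and of the Itgam and Itgb2 pair, varied widely between control libraries. Control libraries had 189, 160.5, 3131, 538 and 5544 CPM, and diabetic libraries 317, 344, 220.0 and 624 CPM. Control 4 and control 6 were far above the rest, and the lower of them was 5.02 times the highest of the other 7 libraries. The groups overlapped. The endothelial marker list summed to 411 CPM in control 4, 399 in control 6 and 417 to 566 CPM in the other controls. In diabetic libraries it summed to 346 to 493 CPM. Its genes did not move together among controls. Tie1 had 3046, 2815, 2625, 3126 and 2093 counts, and Cldn5 had 609, 317, 18, 2 and 1. The part of endothelial cells in the Icam1 values was not tested. Icam1 alone took 0.290% of the counts in control 4 and 0.465% in control 6, against 0.0163% to 0.0647% in the other libraries. It lies on chromosome 8, 22035256 to 22047059, plus strand of Rnor6 (ENSRNOG00000020679). In the authors' transcript assemblies its reference transcript was estimated at 546 TPM in control 4 and 837 TPM in control 6, and at 16.5 to 103 TPM in the other libraries where it was matched. Icam4 is the neighbour of Icam1 in RefSeq assembly GRCr8 and the strand setting is not given, so reads shared between them cannot be told apart.

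Control 4 and control 6 were also the libraries with the largest share of counts on the cell isolation response list, which holds no member. The slope of each gene on the log2 of that share was tested with the group held in the model. This slope is not independent of the group contrast known when the members were chosen, because control 4 and control 6 weigh on both. The isolation list was also chosen with earlier results of these data known. Nothing is therefore read from the share of members with a slope. Of the 24 members, 5 had a slope past an adjusted p of 0.05 (20.8%), all positive, beside 7.52% of all genes (5.85% positive and 1.68% negative). The 5 were Icam1, Vcam1, Itga5, Itgb3 and Itgax. Per doubling of the share, Icam1 rose by 1.92 on the log2 scale (SE 0.52, adjusted p 0.00972), Vcam1 by 0.74 (SE 0.18, adjusted p 0.00375) and Itga5 by 0.68 (SE 0.16, adjusted p 0.0019). Itgax rose by 0.62 (SE 0.21, adjusted p 0.0447) and Itgb3 by 0.43 (SE 0.15, adjusted p 0.0458).

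Vcam1, whose product binds Itga4 with Itgb1, had 122, 133, 438, 166 and 441 CPM among controls and 135, 110.2, 103 and 149 CPM in diabetic libraries. Itga5, the fibronectin receptor chain, had 50.9, 48.7, 124, 55.7 and 168 CPM among controls and 54.0, 46.8, 50.1 and 69.9 CPM in diabetic libraries. In both, control 4 and control 6 were the highest of the 9 libraries. Itgb3, the second partner of Itgav, had 26.6, 37.6, 56.7, 37.6 and 84.8 CPM among controls and 25.8, 29.4, 29.5 and 32.6 CPM in diabetic libraries. Itgax, a chain of the complement receptor CR4, had 10.6, 3.82, 15.2, 10.4 and 16.9 CPM among controls and 13.8, 6.13, 9.89 and 10.7 CPM in diabetic libraries, and the 2 highest values were again control 4 and control 6. RefSeq lists the symbol Itgax as a synonym of Itgad, so the row may hold reads of either gene. The lower of control 4 and control 6 was 2.65 times the highest of the other 7 libraries for Vcam1, 1.78 times for Itga5, 1.51 times for Itgb3 and 1.10 times for Itgax. Vcam1 spans chromosome 2, 219071193 to 219097619, minus strand of Rnor6 (ENSRNOG00000014333).

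**Figure D3:**
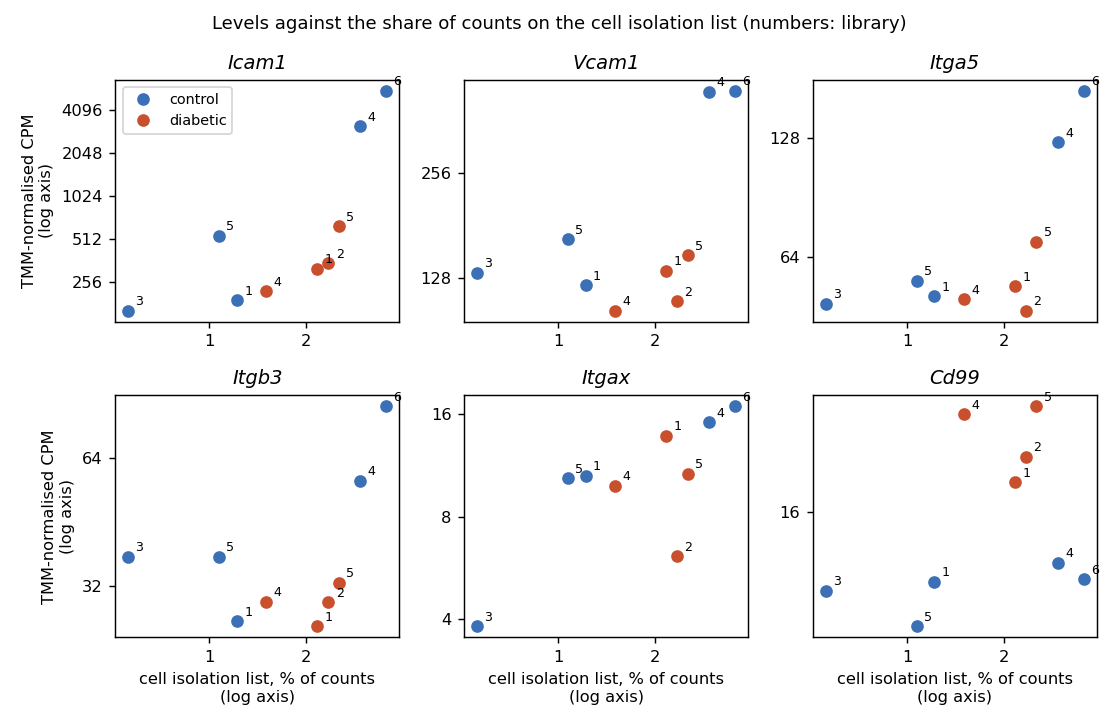
Normalised CPM of the 5 members with a slope and of Cd99 against the share of counts on the cell isolation response list (%), both on log axes, with 1 numbered point per library coloured by group. Icam1, Vcam1 and Itga5 are highest in control 4 and control 6, which have the 2 largest shares.

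In the edgeR test, the calls of the 5 slopes depended on control 4 and control 6. Leaving out these libraries also leaves fewer libraries and a narrower range of the share. Without both, none of the 24 members had a slope past the threshold in the edgeR test, 0 of 11902 genes did, and 0 members and 573 genes had an unadjusted p under 0.05. The slopes were then 1.23 for Icam1, 0.21 for Vcam1, 0.20 for Itga5, 0.89 for Itgax and -0.16 for Itgb3. That of Itgax was larger than with all libraries. It was lowest, at 0.35 (edgeR adjusted p 0.354), without control 3. Without control 6 alone, only Itga5 passed. Itga5 passed in all 9 fits that left out 1 library, Icam1 and Vcam1 in 8, Itgax in 4 and Itgb3 in 2. With the group left out of the model, 0 members passed, and 6 had an unadjusted p under 0.05.

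The group differences of these genes changed when control 4 and control 6 were left out. With all libraries, the log2 fold change of diabetic minus control was -2.35 (SE 1.38) for Icam1, -1.06 (SE 0.55) for Vcam1, -0.70 (SE 0.47) for Itga5, -0.73 (SE 0.35) for Itgb3 and -0.16 (SE 0.39) for Itgax. Without these 2 libraries, a setting chosen after the data were seen, the values were 0.34, -0.18, 0.084, -0.22 and 0.29. Those of Cd99 and Itgb1 were then 1.14 and -0.37. With the isolation share as a covariate, 9 members were past the adjusted threshold, beside 13.3% of all genes. Icam1, Itga5, Itgav, Itgb1, Itgb3 and Vcam1 were lower, and Icam2, Itgb7 and Cd99 higher. Icam1 had -2.19 in this fit, against 0.34 without control 4 and control 6. Members and isolation list were chosen with earlier results known, and control 4 and control 6 weigh on the slope. Nothing is therefore read from this count.

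**Figure D4:**
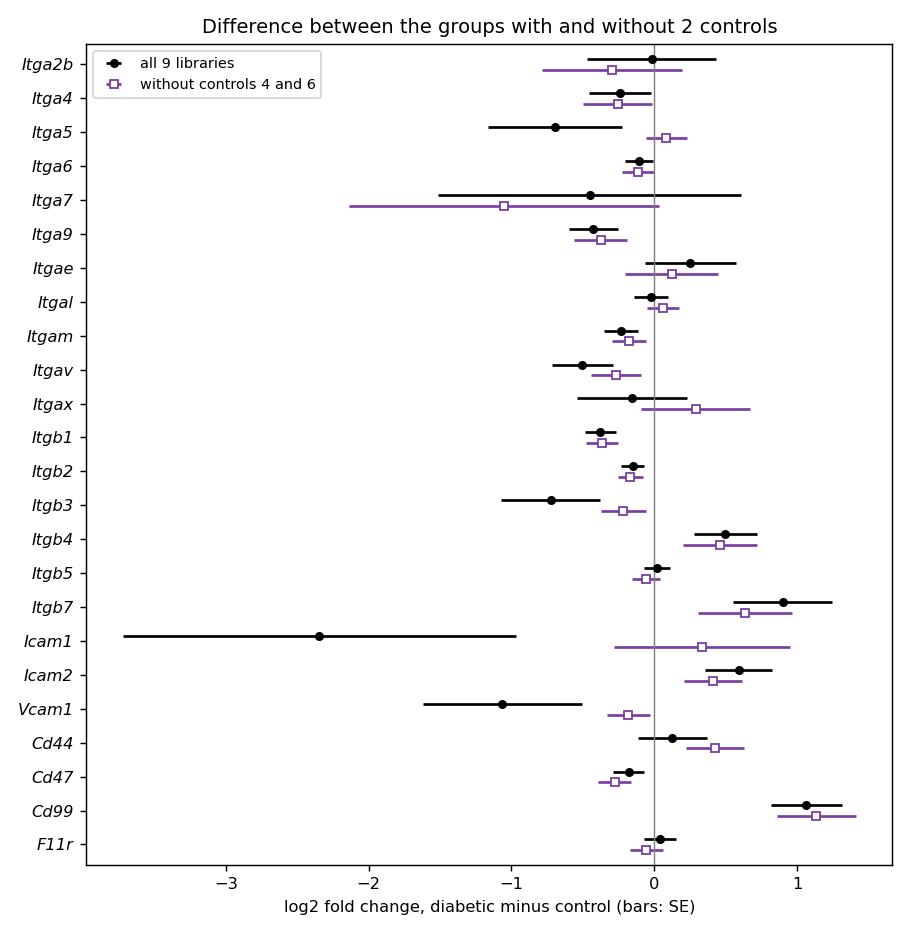
Log2 fold change (diabetic minus control) of the tested members with all 9 libraries and without control 4 and control 6, with bars for the SE. Icam1 goes from -2.35 to 0.34 and Itga5 from -0.70 to 0.084, while Cd99 stays near 1.

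Promoters are shown for 4 of the 5 members with a slope, because Icam1 and Vcam1 are textbook targets of NF-kappaB. No promoter of Itgb3 was matched. The isolation list itself names the NF-kappaB inhibitor genes Nfkbia and Nfkbiz, so slope and motif are not separate measures. The part of NF-kappaB in the slopes was not tested. The stretches run from 250 bases before to 50 bases after the transcript start in RefSeq, build GRCr8, in lower case. Matches to the kappaB motif (10 letters, both strands, overlapping matches counted) are in capitals. The motif was written [GT]GG[AG]NN[CT][CT]CC, with N for any base. The match in Icam1 and the first in Vcam1 begin with T, so they depend on the T allowed there. Icam1 is chr8:27829595-27829894 on the plus strand, Vcam1 is chr2:206742734-206743033 and Itga5 is chr7:136381256-136381555, both on the minus strand, and Itgax is chr1:192149799-192150098 on the plus strand.
Icam1: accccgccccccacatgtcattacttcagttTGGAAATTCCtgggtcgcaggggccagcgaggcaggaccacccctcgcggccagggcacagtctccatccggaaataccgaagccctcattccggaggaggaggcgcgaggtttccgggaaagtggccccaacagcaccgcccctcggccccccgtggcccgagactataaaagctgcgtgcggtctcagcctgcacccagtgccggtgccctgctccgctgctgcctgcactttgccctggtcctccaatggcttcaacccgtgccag
Vcam1: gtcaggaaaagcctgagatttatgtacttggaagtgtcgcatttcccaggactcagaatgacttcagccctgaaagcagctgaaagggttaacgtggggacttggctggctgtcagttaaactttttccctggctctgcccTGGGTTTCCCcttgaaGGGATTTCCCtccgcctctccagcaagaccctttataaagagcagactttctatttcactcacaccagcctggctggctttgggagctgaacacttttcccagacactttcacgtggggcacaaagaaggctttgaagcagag
Itga5: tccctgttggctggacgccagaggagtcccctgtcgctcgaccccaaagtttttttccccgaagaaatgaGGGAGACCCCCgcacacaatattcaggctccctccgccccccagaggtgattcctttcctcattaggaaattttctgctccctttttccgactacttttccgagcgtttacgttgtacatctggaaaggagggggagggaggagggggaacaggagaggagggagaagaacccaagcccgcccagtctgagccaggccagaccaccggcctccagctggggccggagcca
Itgax: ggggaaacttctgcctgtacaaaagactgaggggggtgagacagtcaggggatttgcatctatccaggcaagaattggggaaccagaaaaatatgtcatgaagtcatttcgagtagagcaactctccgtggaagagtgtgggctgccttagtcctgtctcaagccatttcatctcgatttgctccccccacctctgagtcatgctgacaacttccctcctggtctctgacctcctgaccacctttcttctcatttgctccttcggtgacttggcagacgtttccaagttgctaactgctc
The Icam1 stretch holds 1 match, at -219 to -210 from the start, the Vcam1 stretch 2, at -109 to -100 and -93 to -84, and the Itga5 stretch 2 that overlap. The Itgax stretch holds none, which says only that these letters are not in this window. Of 33469 promoters of the same length, 16.1% hold a match, as do 5 of the 26 members (of 34) that the promoter table matched (Icam1, Itga3, Itga5, Itgb7 and Vcam1). A match is not a binding site.

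Icam2, the constitutive counter-receptor of LFA-1 on endothelium, had 14.3, 9.99, 6.67, 11.1 and 10.3 CPM among controls and 14.04, 16.3, 17.4 and 15.5 CPM in diabetic libraries (0.59, SE 0.23). Control 1 was the one control inside the diabetic range. F11r, a junctional adhesion molecule that binds LFA-1, ran from 251 to 332 CPM among controls and from 260.1 to 335 CPM in diabetic libraries (0.04, SE 0.11). Cd44, the hyaluronan receptor, had 11.1, 11.6, 12.9, 11.5 and 23.7 CPM among controls and 18.2, 12.2, 16.6 and 14.7 CPM in diabetic libraries (0.13, SE 0.24). Control 6 was higher than all diabetic libraries, and the other controls were below 3 of the 4. The log2 fold change ran from 0.035 to 0.39 on leaving out 1 library, highest without control 6, and was 0.43 without control 4 and control 6. Cd47, the ligand of Sirpa that restrains phagocytosis, ran from 426 to 545 CPM among controls and from 382 to 458 CPM in diabetic libraries (-0.18, SE 0.11), and the log2 fold change was -0.28 without control 4 and control 6.

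A further 9 members had 0 counts or too few to test. Itga1, a collagen receptor chain, had 38 counts in control and 10 in diabetic libraries, with 20 of the control counts in control 3. Itga3 had 26 and 21 counts and Itgb8 12 and 16. Itga2, Itga8, Itga10 and Itga11 each had 1 to 7 counts per group. Itgb6, an epithelial chain, had 0 counts in all 9 libraries, as did Cd99l2, and neither was detected at this depth.

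Genes that switch integrins on or carry their signal were taken from lists made beside the members, and their levels are the control mean (n = 5) and then the diabetic mean (n = 4), each ± SD. No gene of any of the 4 lists passed an adjusted p of 0.05 in the edgeR test between the groups. Over all genes tested, 18.9% had an unadjusted p under 0.05 (8.94% higher and 10% lower) and DESeq2 called 5.16%. These shares stand beside the counts of each list. The lists were chosen with earlier results of these data known, so nothing is read from the comparison. Of the integrin activation list 21 of 22 genes were tested, with a median log2 fold change of -0.078, 9 above and 12 below 0. An unadjusted p under 0.05 was found for 3 higher and 4 lower genes, and DESeq2 called 1. Rap1gap, which turns off the small GTPase Rap1, had 5.06 ± 2.04 CPM among controls and 13.2 ± 5.13 CPM in diabetic libraries (1.38, SE 0.44) with no overlap. Rasgrp2, which turns it on, had 1.36 ± 0.606 and 2.78 ± 0.799 CPM (1.02, SE 0.43). Of the lower ones, Skap2, an adaptor of integrin activation, had 584 ± 70.2 and 483 ± 40.7 CPM (-0.27, SE 0.12), and Rap1a, a Rap1 gene itself, 138 ± 13.5 and 116 ± 5.29 CPM (-0.24, SE 0.11).

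Of the adhesion signalling list 23 of 24 genes were tested, 6 above and 17 below 0, median -0.17. An unadjusted p under 0.05 was found for 3 higher and 6 lower genes (all genes 18.9%), and DESeq2 called 4 (all genes 5.16%). Lyn, a Src-family kinase of myeloid cells, had 1149 ± 145 CPM among controls and 860 ± 49.6 CPM in diabetic libraries (-0.42, SE 0.13) with no overlap. Lims1, an adaptor that links integrins to actin, had 194 ± 16.6 and 155 ± 14.3 CPM (-0.32, SE 0.12). Ptk2b, the focal adhesion kinase of leukocytes, had 66.5 ± 4.07 and 87.2 ± 13.2 CPM (0.39, SE 0.14), and Arpc1b, a subunit of the actin-nucleating Arp2/3 complex, 468 ± 15.7 and 555 ± 73.0 CPM (0.24, SE 0.11). By the slope on the isolation share, 4 of its 23 genes passed, beside 7.52% of all genes (5.85% positive). They were Zyx with 0.63, Vasp 0.51, Nedd9 0.71 and Bcar1 1.27, all positive (edgeR adjusted p 0.0074, 0.00869, 0.0189 and 0.0172). Of the activation list Rap1b passed with 0.30 (adjusted p 0.0134), and of the matrix list Nrros with 0.25 (adjusted p 0.0441).

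Matrix ligands had 12 of 21 genes tested, 5 above and 7 below 0, median -0.11, with 1 unadjusted p under 0.05 and 1 call by DESeq2. Col4a2, a basement membrane collagen, had 3.47 ± 2.52 and 0.959 ± 0.504 CPM (-1.81, SE 0.69), and Tnc, the matrix protein tenascin C, 0.640 ± 0.787 and 1.86 ± 1.33 CPM (1.50, SE 0.89). Lamc1, a laminin chain, had 15.2 ± 2.80 and 10.7 ± 3.78 CPM (-0.49, SE 0.26), and Edil3, a ligand of Itgav integrins, 2.62 ± 1.34 and 3.63 ± 4.00 CPM (0.51, SE 0.68). Selectins and other transmigration molecules had 12 of 24 tested, 7 above and 5 below 0, median 0.027. Of these, 2 on either side of 0 had an unadjusted p under 0.05 (all genes 18.9%) and DESeq2 called 2 (all genes 5.16%). Spn, the leukocyte sialoglycoprotein CD43, had 15.2 ± 6.53 CPM among controls and 32.5 ± 2.45 CPM in diabetic libraries (1.09, SE 0.35) with no overlap. The lower ones were Alcam, an immunoglobulin-family adhesion molecule, with 67.0 ± 5.62 and 53.5 ± 9.35 CPM (-0.32, SE 0.14), and Cdh5, the endothelial cadherin, with 21.4 ± 5.02 and 15.3 ± 4.03 CPM (-0.48, SE 0.24). S100a8 and S100a9, given above, were higher in the same libraries, while the sum of the whole neutrophil list overlapped. The part of neutrophils in the Spn values was not tested. In the slope test, 1 gene of this list passed, Icam4, with 2.09 on the log2 scale per doubling of the isolation share (edgeR adjusted p 0.000784).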

How the data were processed

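RNA-seq libraries of sorted retinal microglia (5 control, 4 diabetic) were grouped by title and treatment label. The authors deposited raw counts per gene symbol. A second deposited table gives the authors' log2 fold changes and p-values, and 9 deposited assemblies give TPM per transcript on Rnor6, per the file headers. The submitters' processing notes list bcl2fastq 2.18.0.12, TopHat2 2.0.14, StringTie 1.2.4, edgeR and Rnor_6.0. The counting program is not given in the sources used here, nor is the strand setting.

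Genes were filtered with filterByExpr (minimum count 10, total 15) and scaled by TMM. The test was the robust quasi-likelihood F test of edgeR 4.0.16 in R 4.3.3, without covariates, with Benjamini-Hochberg adjustment over 11748 genes and a threshold of 0.05. The isolation slope used the log2 share of counts on that list beside the group. An SE is the size of a log2 fold change over the normal quantile that matches the p-value. DESeq2 1.42.0 and other scalings, filters and left-out libraries were alternatives, and the scripts were tested on simulated data. Gene lengths were not at hand for most members, so the planned order of levels per kilobase is not given. The members and all lists were chosen with earlier results of these data known. All members are named; of each pathway list with no gene past the threshold, the 2 with the smallest p in each direction are named, except 1 gene that is not reported here, and genes with a slope past the threshold were added after their values were seen. Molecular identifiers are not named, so counts are reads.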

Additional observations from a re-analysis of the deposited data

Results flagged for a closer look

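In 7 of 62 groups of libraries looked at over the members, 1 library stood apart from the rest of its group by more than Dixon's 95% criterion allows. Chance marks about 5% of groups this way where values are continuous and normal. A group with counts in only 1 library is always marked, as in both groups of Itga2 and the diabetic groups of Itga8 and Itga10. The 7 of 62 groups are therefore not read against 5%. Among tested members, Itga9 was low in control 1 (133 CPM, the other controls 177 to 188) and Cd44 was high in control 6 (23.7 CPM, the others 11.1 to 12.9). The other 5 rest on few reads. Itga2 was counted in 1 library of each group, control 3 (0.347 CPM, 4 counts) and diabetic 1 (0.198 CPM, 2 counts). Itga8 was highest in control 6 (0.645 CPM, 5 counts) and diabetic 1 (0.198 CPM, 2 counts), and Itga10 had 1 count among the diabetic libraries, in diabetic 5 (0.1001 CPM).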

How the results depend on the processing

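The main test called 1 member and 8 genes between the groups. The number of members called was 2 with DESeq2 (598 genes), 9 with the isolation share as a covariate (1566 genes), 0 without control 4 and control 6 (chosen after the data were seen, 0 genes; 6 members and 1775 genes had an unadjusted p under 0.05), and 0 to 1 on leaving out each library in turn. Whether replicate numbers shared by the groups pair the libraries was not tested. Correlations of deviations were 0.201, -0.114 and 0.0156 for numbers 1, 4 and 5. Only for number 1 was each library the other's best match. With the number as a block 0 members and 0 genes were called, with 5 members and 1129 genes at an unadjusted p under 0.05. The number of members with a slope past the threshold was 5, 0 without the group in the model (40 genes), 0 without control 4 and control 6, and 1 to 6 on leaving out each library. Members without overlap numbered 4, and 4 to 8 on leaving out each library (8 without control 1, beside 13.9% of genes). Leaving out a library can hardly lower this number. Of 408 recomputed log2 fold changes of members, 355 kept direction and side of the threshold and 34 changed sign, and of 112 slopes 83 and 5. The changes of sign were Itga2b 0.047 and Itgal 0.057 with upper-quartile factors; Itga2b 0.087, Itga6 0.0069 and Itgal 0.10 with no factors; F11r -0.064, Itga2b 0.29, Itga4 0.067 and Itgal 0.0074 with the block; Itga2b 0.22 and Itga7 0.22 with the covariate. Without control 4 and control 6 they were F11r -0.058, Icam1 0.34, Itga5 0.084, Itgal 0.060, Itgax 0.29 and Itgb5 -0.058. Leaving out 1 library gave ranges of -0.030 to 0.095 for F11r, -0.38 to 0.17 for Itga2b, -1.16 to 0.76 for Itga7, -0.077 to 0.053 for Itgal, -0.38 to 0.028 for Itgax and -0.030 to 0.060 for Itgb5. Slopes that changed sign were Cd99 -0.019 and Itgb1 -0.066 with no factors, Itgb1 -0.046 without the group, and Cd99 -0.068 and Itgb3 -0.16 without control 4 and control 6. The cause of these changes was not tested. Depth limits Itga2b, Itga7, Itgae, Itgb4 and Itgb7, which had under 100 counts in every library.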

Other observations

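Itgb5 is the only member with a reference transcript in all 9 deposited assemblies, and it has 2, on chromosome 11 of Rnor6, minus strand (ENSRNOG00000001795). The first, from 70056502 to 70172164, was estimated at 34.7 to 88.8 TPM, and the second, from 70056500 to 70172372, at 1.86 to 49.2 TPM. In control 3, 4, 5 and 6 and diabetic 1 the estimates of both were close, as in control 3 (48.6 and 45.0 TPM) and diabetic 1 (53.8 and 49.2 TPM). In control 1 (88.8 and 1.86 TPM), diabetic 2 (82.2 and 2.41 TPM), diabetic 4 (83.7 and 7.64 TPM) and diabetic 5 (67.0 and 20.1 TPM) the first was the higher. The gene-level counts did not show such a split, at 545 to 656 CPM in all 9 libraries. The 2 transcripts share most of their span, and whether the estimates or the transcripts differ was not tested.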
